A study of Mus musculus with 8 samples.

Results

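The Cd209 genes encode the mouse DC-SIGN lectins, and the UMI matrix of colonic lamina propria cells held 7 of them among its 16889 gene rows: Cd209a, Cd209b, Cd209c, Cd209d, Cd209e, Cd209f and Cd209g. The members were every row whose symbol starts with Cd209. Of these, 5 (Cd209a, Cd209b, Cd209d, Cd209f and Cd209g) had been picked because their levels in these cells differed between dendritic cells and macrophages or between the conditions, so those levels are given as a description with no test, and Cd209c and Cd209e are reported beside them. A UMI is a molecular tag that marks 1 captured RNA molecule, and levels are given as UMIs per 1000000 UMIs (CPM). Because 3′ UMI counting takes 1 tag from each molecule, the counts were not divided by gene length.

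Cells were single-cell sequenced from 4 control and 4 cKO mice, all female CD98hc flox/flox animals 6 to 12 weeks old that carried the tamoxifen-inducible Cre and yellow fluorescent protein allele Cx3cr1 CreER-YFP. Tamoxifen was injected into the cKO mice to delete CD98hc, the heavy chain of an amino acid transporter encoded by Slc3a2, in cells that use the Cx3cr1 promoter, whereas control mice received corn oil. The drug was therefore given to 1 group only, and its effect and that of the deletion cannot be told apart. Injections were given on 5 consecutive days, with tamoxifen at 20 mg per ml in 100 µl, and cells were taken 7 days after the first. The labels call the sorted cells monocytes and macrophages, and the gate took CD11b+ cells that carried CCR2 or CD64, so the dendritic cells described here are those that passed a gate set for other cells. Each mouse counted as 1 replicate (control 1 to 4 and cKO 5 to 8).

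DC-SIGN lectins are type II membrane proteins that bind mannose- and fucose-containing glycans through a calcium-dependent carbohydrate recognition domain. They take up glycosylated microbes and contact other cells. Humans carry the gene CD209 and its neighbour CLEC4M, whereas the mouse locus is expanded. Cd209a (DC-SIGN) is known from conventional and monocyte-derived dendritic cells, Cd209b (SIGNR1) from macrophages of the splenic marginal zone and lymph node medulla, and Cd209d (SIGNR3) is a glycan-binding member found on myeloid cells. Cd209c (SIGNR2), Cd209e (SIGNR4), Cd209f (SIGNR8) and Cd209g (SIGNR7) are less well described.

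All 7 genes lie on chromosome 8, within 394.3 kb at 3743397 to 4137707 (GRCm38, GENCODE vM21), in the order Cd209a, Cd209e, Cd209d, Cd209b, Cd209c, Cd209f and Cd209g. The first 5 fill 211.4 kb, and 148.0 kb separate Cd209c from Cd209f. Cd209g is on the plus strand and the other 6 are on the minus strand. Of the 11 other annotated genes between them 0 are protein coding, and no annotated gene overlaps a member. None of the 50-base stretches in the last 500 bases of a member's coding transcripts occurred in a transcript of another gene, by exact match, which bears on whether 3′ reads could be given to the wrong member.

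**Figure D1:**
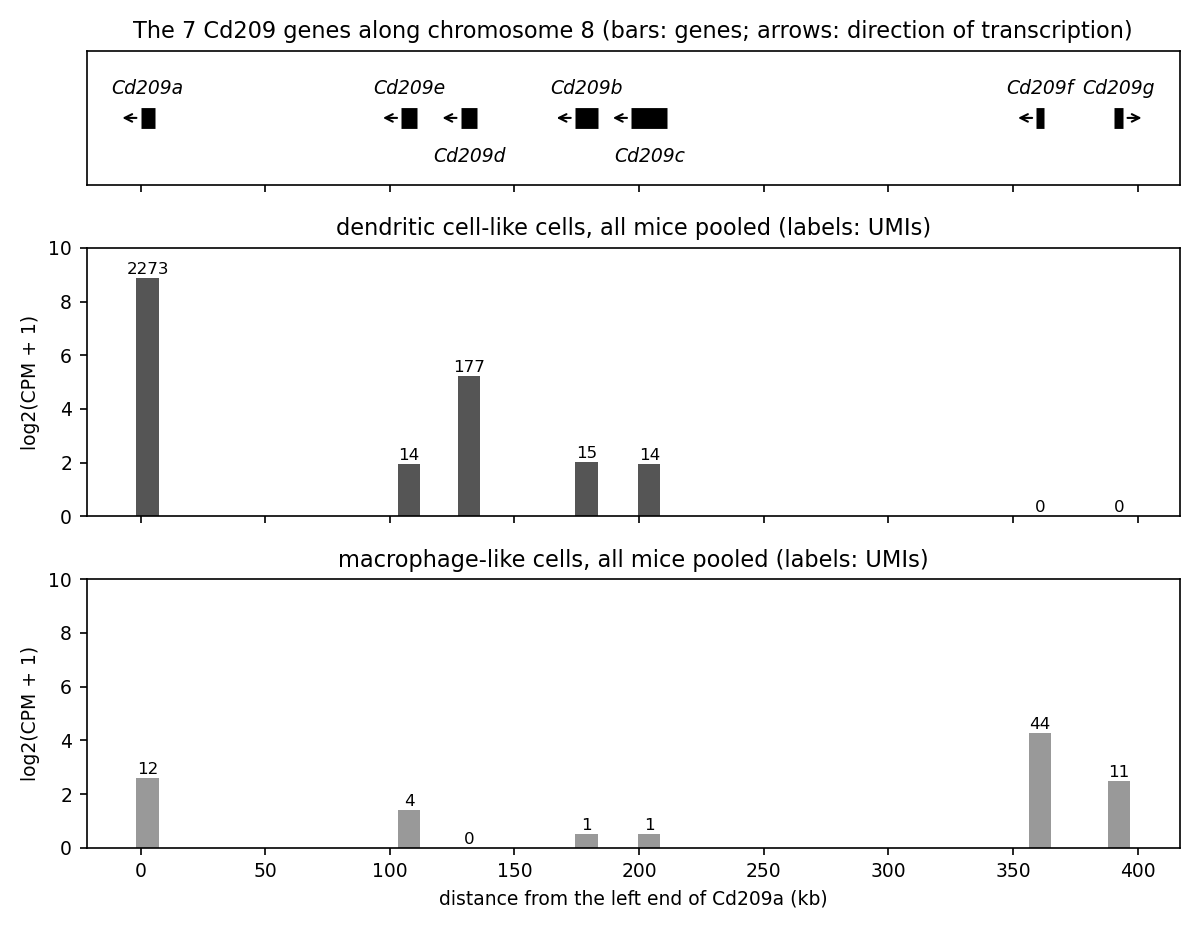
Position along the locus in kb from the start of Cd209a (x axis) against the pooled level in log2(CPM + 1) (y axis) for the 7 genes, in dendritic cell-like and macrophage-like cells, with the number of UMIs beside each bar. Cd209a is the highest bar in dendritic cell-like cells, and the bars of Cd209f and Cd209g, at the other end of the locus, stand only in macrophage-like cells.

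The bases just upstream of 3 members are shown because these members carry the contrast between cell types. The stretches are RefSeq promoter sequence (GRCm38.p6), cut to the bases outside annotated exons and written 5′ to 3′ on the gene's own strand. Capitals mark the letters TTCCGG, which read CCGGAA on the other strand, in Cd209a, and TGTGTCA, which reads TGACACA there, in Cd209a and Cd209d. In Cd209f capitals mark only the part shown of a run of letters shared with Cd209g, which holds TTCCGG.
Cd209a, chr8:3748985-3749234, minus strand: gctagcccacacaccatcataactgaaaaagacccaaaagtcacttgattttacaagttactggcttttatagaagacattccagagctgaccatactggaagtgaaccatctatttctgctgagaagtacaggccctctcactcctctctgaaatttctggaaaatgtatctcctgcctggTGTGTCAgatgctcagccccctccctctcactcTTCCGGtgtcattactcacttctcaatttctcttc
Cd209d, chr8:3878556-3878749, minus strand: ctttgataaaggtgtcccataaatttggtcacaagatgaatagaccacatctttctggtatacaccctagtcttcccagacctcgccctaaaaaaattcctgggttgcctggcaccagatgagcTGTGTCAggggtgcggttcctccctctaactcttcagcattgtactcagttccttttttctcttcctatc
Cd209f, chr8:4105836-4106014, minus strand: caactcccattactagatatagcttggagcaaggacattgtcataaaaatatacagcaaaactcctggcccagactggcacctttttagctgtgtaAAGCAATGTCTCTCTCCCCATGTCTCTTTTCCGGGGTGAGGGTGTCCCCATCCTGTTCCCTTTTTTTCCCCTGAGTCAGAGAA

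Over the 250 bases before the RefSeq start, Cd209f and Cd209g shared an exact run of 154 bases, of which 83 are shown in capitals, and were 78.1% identical. The other 20 of the 21 pairs of members were 44.0 to 58.0% identical, and their longest common run was 12 bases. All 250 of these bases in Cd209g and 71 of those in Cd209f lie within exons of the GENCODE annotation, whose starts differ from those of RefSeq, so the shared run and the Cd209g matches below are in part or whole transcribed sequence by that annotation. The Cd209g stretch is not shown for that reason. The motifs were picked after looking at the sequences and searched on both strands. TTCCGG was found in 5 of 7 members (Cd209a, Cd209b, Cd209e, Cd209f and Cd209g) against 12% of 32851 promoters. TGTGTCA was also found in 5 of 7 (Cd209a, Cd209b, Cd209d, Cd209e and Cd209g) against 4.18%, and TATATAA, which reads TTATATA on the other strand and lies outside the stretches shown, in Cd209f and Cd209g against 3.04%. In these 2 genes its matches on the 2 strands overlap by all but 1 letter, and no match of a motif overlaps one of another motif. A match describes the letters only.

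After filtering, 3213 of 5947 barcodes remained (1863 control and 1350 cKO cells), with 589135 to 3762314 UMIs per control mouse and 497531 to 2486236 per cKO mouse. The median per cell was 4769 to 5538 UMIs in control and 4149 to 5179.5 in cKO mice. Control 3 and cKO 5 gave 85 and 83 cells, the fewest, and 26 cell names were shared between mice. Slc3a2 was at 232.5 to 493.1 CPM in control and 291.4 to 357.3 in cKO mice, which does not check the labels, since a 3′ count need not fall when exons are deleted.

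Cells were clustered and called "X-like" where at least 3 of the 10 leading genes were markers of that type, and no Cd209 gene served as a marker. The dendritic cell-like cluster (498 cells) was led by Cd24a, Xcr1, Klrd1, Tnni2 and Flt3. Its 5 general dendritic cell markers summed to 445.6 CPM against 32.4 in macrophage-like cells (372 cells), where the 15 macrophage markers summed to 62730 against 906.3 CPM. The dendritic cell-like cells split into an Xcr1 sub-cluster (299 cells, type 1 dendritic cell markers 6753 CPM) and a sub-cluster called here Clec10a dendritic cell-like (199 cells, type 2 markers 2433 CPM, type 1 markers 810.7 CPM). The leading genes of the latter mixed type 2 and migratory dendritic cell markers. Itgam, which encodes the CD11b of the gate, had a UMI in 50.8% of Clec10a and 9.03% of Xcr1 dendritic cell-like cells against 63.2% of macrophage-like cells.

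Cd209a was the most abundant member, with 2461 UMIs in 245 cells, and Cd209d came next with 185 UMIs in 57 cells. Cd209f followed with 63 UMIs in 11 cells. Cd209b had 21 UMIs in 12 cells, Cd209e 20 in 14, Cd209g 20 in 7 and Cd209c 17 in 13. The counts were spread differently over cells: the 10 highest cells held 20.3% of Cd209a UMIs but 56.8% of those of Cd209d, 98.4% of those of Cd209f and 100% of those of Cd209g. The highest count in a single cell was 83 for Cd209a, 25 for Cd209d, 26 for Cd209f and 10 for Cd209g.

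Cd209a was concentrated in dendritic cell-like cells, and within them in the Clec10a sub-cluster. Dendritic cell-like cells held 2273 of its 2461 UMIs, at 470.2 CPM, and 174 of 498 had a UMI (34.9%, 95% Wilson interval 30.9 to 39.2%). In the Clec10a sub-cluster 152 of 199 cells had a UMI (76.4%, 70.02 to 81.8%) at 1341 CPM, against 22 of 299 (7.36%, 4.91 to 10.9%) at 35.4 CPM in the Xcr1 sub-cluster. In macrophage-like cells 12 of 372 had a UMI (3.23%, 1.86 to 5.55%), each of them a single UMI, at 5.05 CPM. Lymphoid-like cells, which should lack the gene, had a UMI in 4 of 181 cells (2.21%), also at 5.05 CPM. Whether the macrophage-like value is background was not tested. These intervals cover counting error only.

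Pooled over both groups, the other clusters had less Cd209a than the Xcr1 sub-cluster. It was at 32.6 CPM in the Ccl24/Mmp12 cluster, 24.0 in the Gdf15/Ccl3 cluster and 16.8 in the Il1a/Saa3 cluster, none of which was named. It was at 8.64 CPM in monocyte-like cells and 2.75 in the Ccl8/Pf4 cluster. None of 86 stromal-like cells had a UMI, which allows a share of cells with a UMI of up to 3.49% and a level of up to 7.05 CPM. Here and below such limits are on cells with a detected UMI, not on cells that express the gene, since a low transcript can be missed in a cell that expresses it. The exact Poisson intervals of the Ccl24/Mmp12 (24.1 to 43.0), Gdf15/Ccl3 (18.4 to 30.8) and Xcr1 (29.2 to 42.5 CPM) values overlap, as do those of monocyte-like (5.20 to 13.5), macrophage-like (2.61 to 8.81) and lymphoid-like cells (1.38 to 12.9 CPM). Overlap of intervals is not a test, and the order within these sets was not tested. These values pool the groups, and the order differed between them. In control cells the Il1a/Saa3 cluster was at 76.4 CPM (5 of 55 cells), Ccl24/Mmp12 at 42.2 and Gdf15/Ccl3 at 38.7. The control Xcr1 sub-cluster was at 35.6 CPM. In cKO cells these clusters were at 10.05, 5.12 and 0 CPM, against 34.4 in the Xcr1 sub-cluster.

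Depth differed between the types, so each cell was also thinned to 1000 UMIs, leaving out shallower cells. The share with a Cd209a UMI was then 52.0% in the Clec10a sub-cluster, 3.16% in the Xcr1 sub-cluster and 0.616% in macrophage-like cells, from median depths of 7818, 10791 and 5730 UMIs. The order of these 3 did not change, but macrophage-like cells, at 3.23% unthinned against 3.17% of monocyte-like, 3.01% of Ccl24/Mmp12 and 1.92% of Il1a/Saa3 cells, fell below all of these when thinned (0.863, 1.57 and 0.780%).

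**Figure D2:**
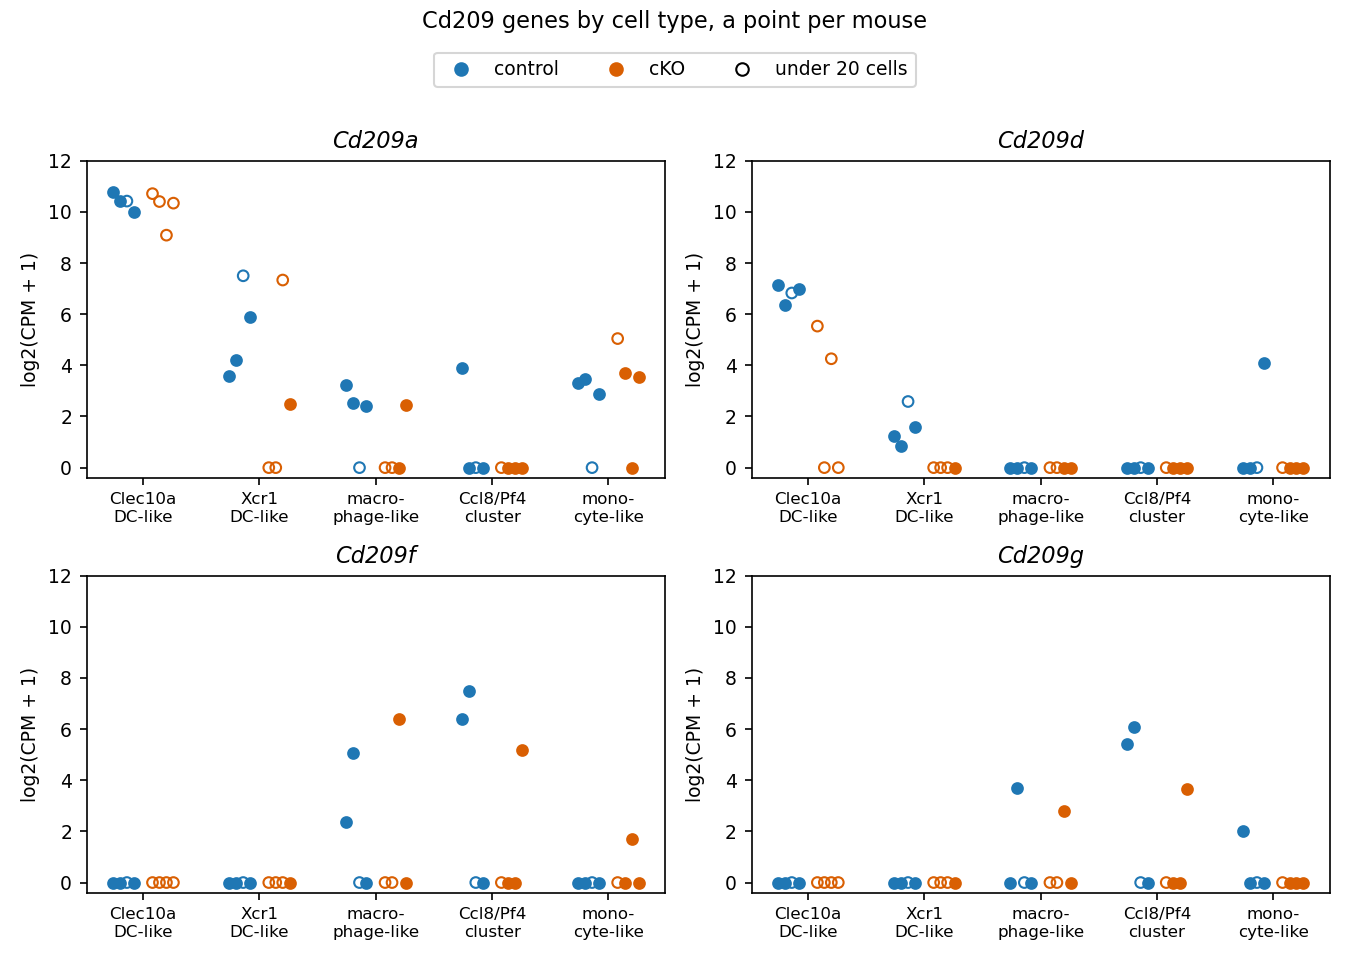
Level as log2(CPM + 1) (y axis) of Cd209a, Cd209d, Cd209f and Cd209g in each mouse (points) for 5 cell types (x axis); open points are mice with under 20 cells of that type. Cd209a and Cd209d are highest in the Clec10a dendritic cell-like column, and Cd209f and Cd209g are above 0 only in the macrophage-like, Ccl8/Pf4 and monocyte-like columns.

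Cd209d followed the same distribution at a lower level. Dendritic cell-like cells held 177 of its 185 UMIs, and the Clec10a sub-cluster alone held 173 in 47 of 199 cells (23.6%, 18.3 to 29.98%) at 107.5 CPM. The Xcr1 sub-cluster had 4 UMIs in 4 cells, and monocyte-like cells had 5 UMIs in 3 cells, all from control 4. None of 372 macrophage-like cells had a Cd209d UMI, which allows a share with a detected UMI of up to 0.806% and a level of up to 1.26 CPM.

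Cd209f and Cd209g showed the opposite distribution, in few cells. Cd209f had 44 UMIs in 4 macrophage-like cells (18.5 CPM) and 17 UMIs in 5 cells of the Ccl8/Pf4 cluster (46.8 CPM). None of 498 dendritic cell-like cells had a UMI of either gene, which allows a share with a detected UMI of up to 0.602% and a level of up to 0.621 CPM. Cd209g had 11 UMIs in 2 macrophage-like cells (4.63 CPM) and 7 UMIs in 3 cells of the Ccl8/Pf4 cluster (19.3 CPM). The Ccl8/Pf4 cluster (263 cells) had a median of 1162 UMIs per cell and 2 macrophage markers, Pf4 and Fcrls, among its leading genes. It was left unnamed because at least 3 such markers were needed, although its 15 macrophage markers summed to 52860 CPM.

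The Cd209b, Cd209c and Cd209e counts were low and lay mostly with Cd209a. In the Clec10a sub-cluster Cd209b had 15 UMIs in 8 cells, Cd209c 14 in 10 and Cd209e 13 in 8. In macrophage-like cells Cd209b and Cd209c had 1 UMI each and Cd209e had 4. Cd209b, known elsewhere from marginal zone macrophages, was thus counted mainly in dendritic cell-like cells here.

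In the 5 mice with at least 20 cells of both types (control 1, 2 and 4, cKO 7 and 8), the dendritic cell-like minus macrophage-like difference on the log2(CPM + 1) scale was 6.58 ± 0.97 (SD, n = 5) for Cd209a, with all 5 above 0. For Cd209d it was 3.77 ± 2.52 (SD, n = 5), with 4 above 0 and 1 at 0 in both types. For Cd209f it was -2.76 ± 2.90 and for Cd209g -1.30 ± 1.80 (SD, n = 5). Macrophage-like cells were the higher side in 3 and 2 mice, and the others were at 0 in both types. The differences of Cd209b (1.33 ± 1.43), Cd209c (0.97 ± 1.12) and Cd209e (0.29 ± 1.151) were no larger than their SD. The same was true of Cd209f and Cd209g, whose values rest on few macrophage-like cells.

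Cd209d was found in cells that also had Cd209a. In the Clec10a sub-cluster all 47 cells with Cd209d also had Cd209a, 105 had Cd209a alone and 47 had neither. Over all cells kept, 51 of the 57 cells with Cd209d also had Cd209a. None of the 11 cells with Cd209f or the 7 with Cd209g had Cd209a or Cd209d, whereas 5 of the 7 cells with Cd209g also had Cd209f. Most of these cells were macrophage-like or in the Ccl8/Pf4 cluster, where Cd209a had a UMI in 3.23 and 0.380% of cells and Cd209d in none. With so few cells, their lack of Cd209a and Cd209d adds nothing to the difference between cell types.

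**Figure D3:**
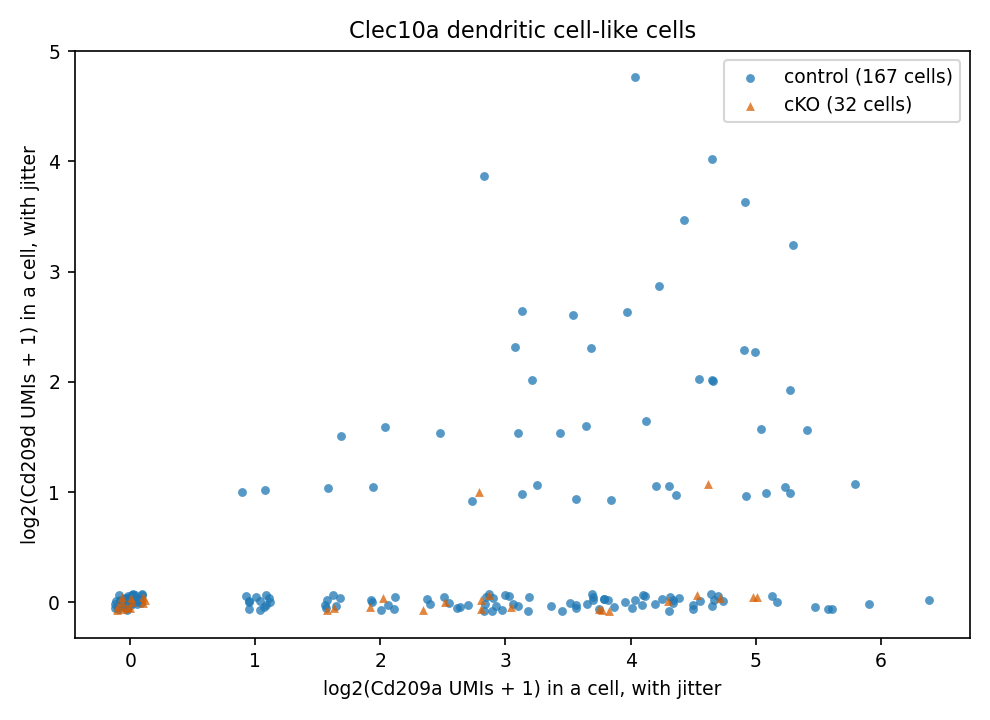
Cd209a (x axis) against Cd209d (y axis) in each of the 199 Clec10a dendritic cell-like cells, as log2(UMI + 1) with a small jitter and coloured by condition. All 47 cells above the Cd209d zero line lie to the right of the Cd209a zero line, and 2 of them come from cKO mice.

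Clec10a sub-cluster cells with Cd209a differed in marker content from those without it. This is a description, because the cells were clustered on part of these genes, such as Ccr7. The Cd209 rows and the genes of the 4 lists below, among them Clec10a, Mgl2, Irf4 and Flt3, were left out of the clustering. The 8 type 2 dendritic cell markers summed to 2723 CPM in the 152 cells with Cd209a against 1324 in the 47 without. The 7 migratory dendritic cell markers, among them the chemokine receptor gene Ccr7, summed to 101.0 against 3370 CPM. The 5 general dendritic cell markers were at 490.4 against 468.2 CPM and the 15 macrophage markers at 987.8 against 1840 CPM. Median depths were 8066.5 and 7187 UMIs.

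The direction of the type 2, migratory and macrophage sums was the same in the 3 mice that had 5 or more cells on both sides. Type 2 markers were at 2873 against 1464 CPM in control 1, 2562 against 1274 in control 4 and 3009 against 701.2 in cKO 8. Migratory markers were at 31.3 against 306.6, 219.9 against 5149 and 26.9 against 4076 CPM. Macrophage markers were at 1315 against 3531, 560.7 against 776.5 and 846.4 against 1753 CPM. Type 1 markers had no single direction, at 749.0 against 2067, 582.4 against 505.1 and 980.7 against 3155 CPM. Nor did monocyte markers, at 1669 against 1770, 2407 against 1636 and 2593 against 832.6 CPM, or the general dendritic cell markers. The galactose-type lectin gene Clec10a had a UMI in 80.9% of cells with Cd209a and 34.04% of those without, its paralogue Mgl2 in 74.3% and 46.8%, and the dendritic cell growth factor receptor Flt3 in 39.5% and 61.7%.

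**Figure D4:**
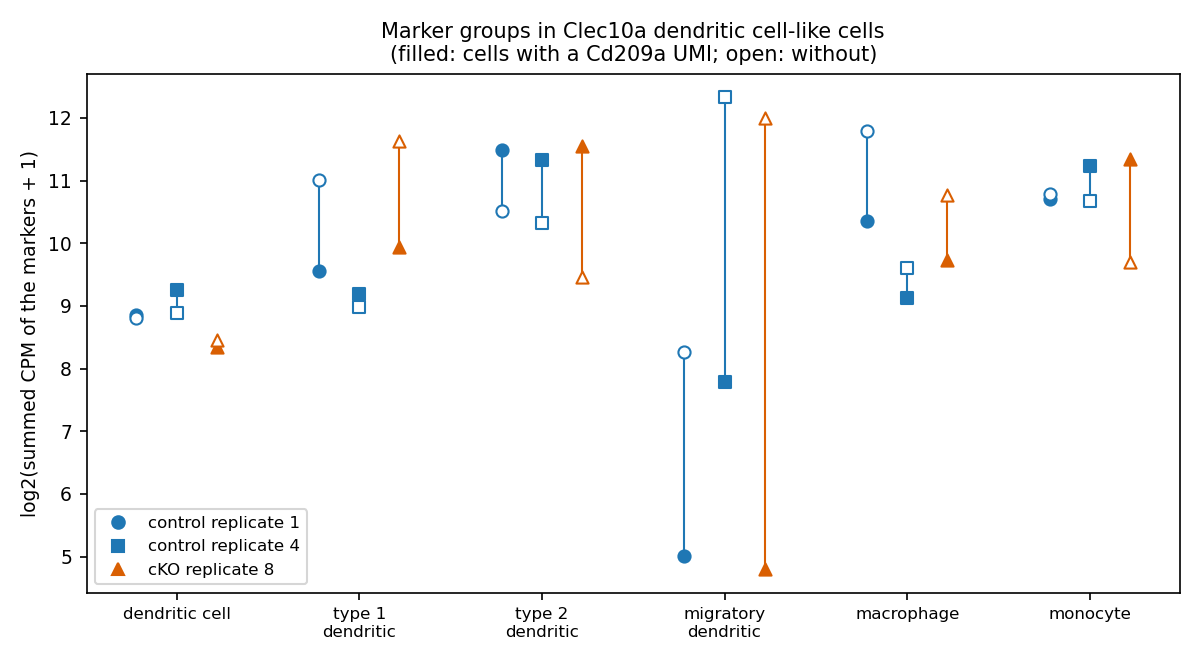
Level as log2(summed CPM + 1) (y axis) of 6 marker classes (x axis) in Clec10a dendritic cell-like cells with and without a Cd209a UMI, for control 1, control 4 and cKO 8. Migratory and macrophage markers are lower and type 2 markers higher in the cells with Cd209a in all 3 mice.

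Cells with Cd209a outside the dendritic cell-like cluster were few but included some high counts. In the Gdf15/Ccl3 cluster 17 cells had the gene, all from control mice, with up to 28 UMIs, and 13 of the 17 had a Clec10a UMI against 25.2% of the other cells of that cluster. In the Ccl24/Mmp12 cluster 14 cells had Cd209a, with up to 15 UMIs, and 7 of the 14 had Clec10a against 11.3% of the other cells there. Of the 9 such cells in the Il1a/Saa3 cluster, the highest had 13 UMIs. These cells were deeper than their neighbours in the Ccl24/Mmp12 cluster (median 5546 against 2360 UMIs), and the part of depth in these shares was not tested.

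The 11 cells with Cd209f came from 5 mice. In macrophage-like cells the counts were 26 and 1 in control 2, 14 in cKO 7 and 3 in control 1. In the Ccl8/Pf4 cluster they were 8 in control 2, 4 and 2 in control 1, and 2 and 1 in cKO 8. The remaining single UMIs were in a monocyte-like cell of cKO 7 and a lymphoid-like cell of control 3. The cell with 26 Cd209f UMIs also held 10 of the 20 Cd209g UMIs.

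Genes of resident macrophages were found in these cells, without a common direction against macrophage-like cells lacking Cd209f. Of 20 such genes, 11 had a UMI in a larger share of the cells with Cd209f, 8 in a smaller share and 1 in neither set. The chemokine gene Pf4 had a UMI in 9 of the 11, against 81.0% of the macrophage-like cells without Cd209f. The folate receptor gene Folr2 had a UMI in 5 of 11 against 22.6%, and the carbonyl reductase gene Cbr2 in 3 of 11 against 10.9%. The mannose receptor gene Mrc1 went the other way, with 4 of 11 against 71.7%, as did Adgre1 (F4/80) with 7 of 11 against 95.7% and Fcrls with 6 of 11 against 76.6%. Median depth was 3301 UMIs in the cells with Cd209f and 5730 in the macrophage-like cells without. Of the 11 cells, 5 lie in the shallow Ccl8/Pf4 cluster. In Ccl8/Pf4 cells without Cd209f (median 1159.5 UMIs), Mrc1 had a UMI in 12.02%, Adgre1 in 46.5% and Fcrls in 47.3%. These shares were below those of the cells with Cd209f. The same held for the other listed genes except Cx3cr1, Timd4 and Vsig4, which had no UMI in the cells with Cd209f. The direction thus depended on the comparison set, and the part of depth in it was not tested.

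The genes whose pattern was most like that of each member were ranked by Pearson correlation of log2(CPM + 1) over 48 sums of a mouse and a cell type, which share mice and libraries. For Cd209a, present in 30 of the sums, they were Flt3 (r = 0.86), the profilin receptor gene Tlr11 (0.80), Ttc39a (0.79), the dead-cell receptor gene Clec9a (0.78) and the transcription factor gene Bcl11a (0.77). For Cd209d, present in 9 sums, they were Ctnnd2 (0.77), Clec4g (0.72), Cd8a (0.70), Sema4f (0.69) and Xcr1 (0.69). For Cd209f, present in 7 sums, they were Cbr2 (0.73), Lbx2 (0.68), Tctex1d4 (0.65), Gm38843 (0.60) and Itm2b (0.60). The other members had under 50 UMIs and were not ranked. Dendritic cell-like cells entered these sums as 1 type, so the ranking does not resolve the sub-clusters. Flt3, Clec9a and Xcr1 were higher in the Xcr1 sub-cluster (163.1, 110.1 and 298.7 CPM) than in the Clec10a sub-cluster (85.1, 11.2 and 9.94 CPM). Cd209a and Cd209d lay mainly in the latter.

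Over all cells of a mouse, Cd209a was at 258.4, 137.6, 188.4 and 211.4 CPM in control 1 to 4 and at 80.4, 32.0, 23.3 and 65.2 CPM in cKO 5 to 8. All 4 cKO mice lay below the lowest control mouse. Here and below, the share of all genes whose groups separate in this way was not counted. The means were 198.9 ± 50.2 and 50.2 ± 27.0 CPM (SD, n = 4 each), and the fitted log2 fold change was -1.98 (SE 0.33). In a sum over all cells, fewer cells of a type and less RNA per cell cannot be told apart, so the share of cells and the level within them follow.

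Cd209d was lower still in cKO mice. It was at 19.7, 7.65, 13.6 and 25.2 CPM in the control mice and at 2.01, 0, 0.804 and 0 CPM in the cKO mice, so the groups did not overlap. The exact Poisson interval of cKO 5 (0.0509 to 11.2), which had few cells, did overlap that of control 2 (4.95 to 11.3 CPM). The 4 control mice held 182 UMIs and the 4 cKO mice 3, and the pooled level was 39.6 times as high in control (exact interval 13.4 to 194.1, counting error only). The fitted log2 fold change was -5.01 (SE 0.71), which depends on the prior count because 2 cKO mice were at 0.

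The other members had a UMI in fewer than the 20 cells needed for a fit. Cd209b was at 1.35 to 3.40 CPM in control mice and at 0 in 3 cKO mice, with 2 UMIs (0.875 CPM) in the fourth. Cd209e was at 0.306 to 5.09 against 0 to 0.875 CPM. Cd209c overlapped fully, with means of 1.96 ± 2.20 and 1.73 ± 2.90 CPM (SD, n = 4 each). Cd209f was at 2.39, 10.7, 1.70 and 0 CPM in control 1 to 4 and at 0, 0, 6.03 and 1.31 in cKO 5 to 8, and Cd209g at 0 to 3.98 against 0 to 0.437 CPM, so both overlapped.

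Dendritic cell-like cells were a smaller share of the cells of cKO mice. They made up 19.6, 26.9, 24.7 and 20.8% of the cells of control 1 to 4 and 8.43, 6.30, 4.34 and 8.07% of those of cKO 5 to 8. The means were 23.0 ± 3.41 and 6.79 ± 1.88% (SD, n = 4 each), a difference of -16.2 percentage points (two-sided exact permutation test, p = 0.0286, the smallest that 70 arrangements allow). Of the dendritic cell-like cells, the Clec10a sub-cluster made up 44.4, 22.8, 23.8 and 59.7% in control and 28.6, 27.3, 47.6 and 40% in cKO mice, and these ranges overlapped. The shares are of sorted cells, so the gate can set them.

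Within dendritic cell-like cells the 2 most abundant members parted. Cd209a was at 730.0, 271.9, 430.5 and 560.3 CPM in control 1 to 4 and at 220.9, 282.2 and 403.5 CPM in cKO 6 to 8. These groups overlapped. The 7 such cells of cKO 5, too few to enter the fit, gave 452.6 CPM. The fitted log2 fold change was -0.78 (SE 0.35), and the pooled level was 1.504 times as high in control (exact interval 1.32 to 1.72, counting error only).

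Cd209d was at 59.2, 16.0, 27.7 and 67.4 CPM in dendritic cell-like cells of the control mice and at 0, 5.76 and 0 CPM in those of cKO 6 to 8. These values did not overlap. The exact Poisson intervals reached 16.6, 32.1 and 11.7 CPM in cKO 6 to 8, and that of control 2, the lowest control, ran from 10.25 to 23.8. The intervals of these cKO mice thus overlap that of control 2. Overlap of intervals is not a test, and single mice were not compared by one. The 7 cells of cKO 5 held 1 UMI (12.2 CPM). In all, 175 control and 2 cKO UMIs were counted, a ratio of pooled levels of 17.1 (exact interval 4.68 to 142.7). The fitted log2 fold change was -4.70 (SE 0.98).

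**Figure D5:**
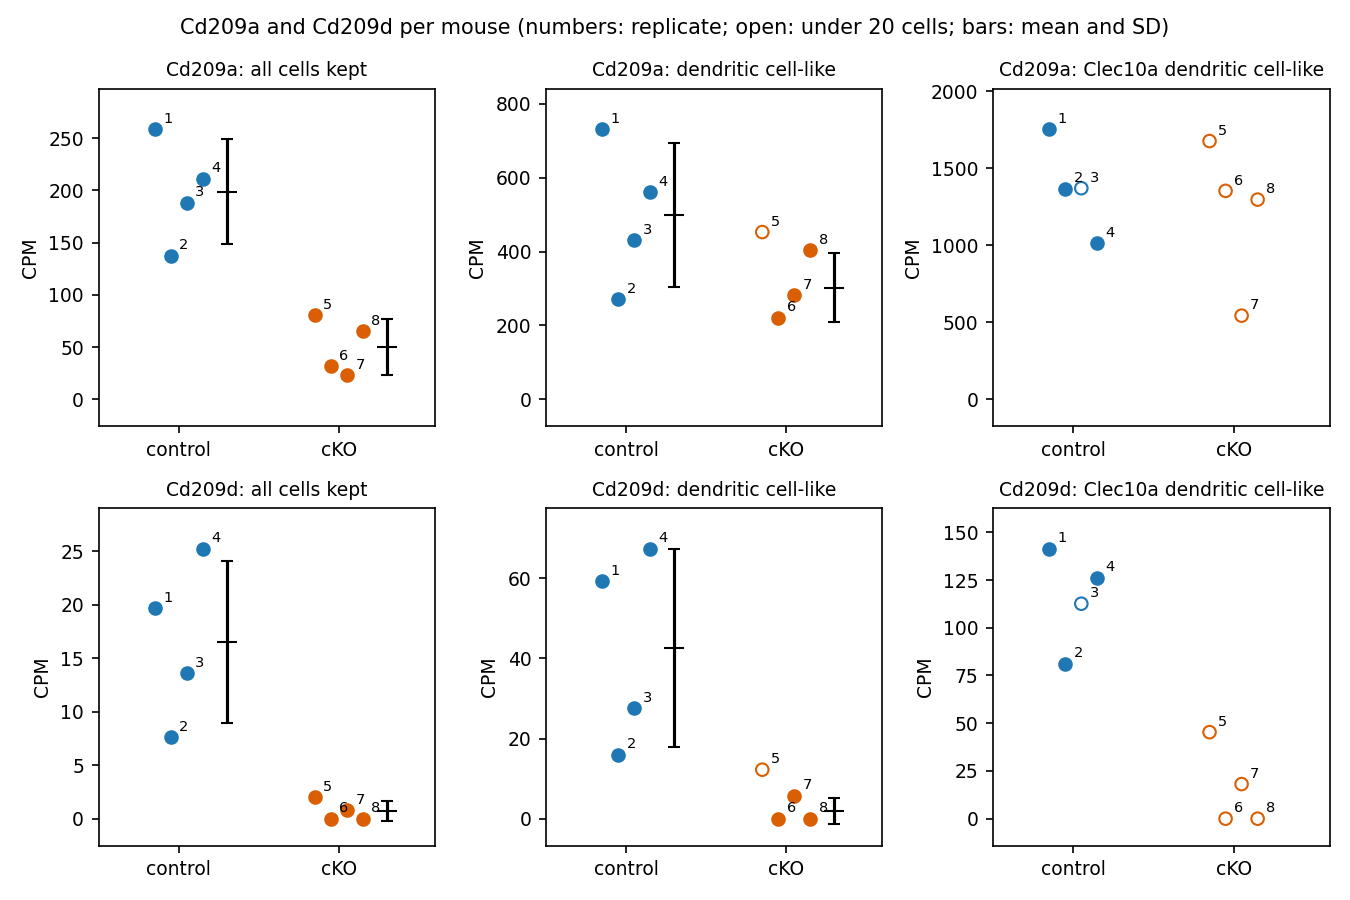
CPM of Cd209a and Cd209d (y axis) in each control and cKO mouse (points) over all cells, in dendritic cell-like cells and in Clec10a dendritic cell-like cells; bars give the mean and SD in the first 2 columns, over filled points, and open points are mice with under 20 cells. Cd209a overlaps between the groups within dendritic cell-like cells, whereas Cd209d is at 0 or at a single UMI in every cKO mouse there.

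The same held in the Clec10a sub-cluster, where the cKO mice had 2, 6, 10 and 14 cells. Cd209a was at 1751, 1368, 1370 and 1012 CPM in control 1 to 4 and at 1676, 1353, 543.5 and 1296 CPM in cKO 5 to 8, which overlapped. Cd209d was at 141.4, 81.3, 112.6 and 126.3 CPM in control mice and at 45.3, 0, 18.1 and 0 CPM in cKO mice. With so few cells, a value of 0 there sets only a wide limit. For every 100 Cd209a UMIs there were 8.92 Cd209d UMIs in control and 0.826 in cKO cells.

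Counted by cell, Cd209d had a UMI in 22 of 63, 7 of 31, 1 of 5 and 15 of 68 Clec10a sub-cluster cells of control 1 to 4, and in 1 of 2, 0 of 6, 1 of 10 and 0 of 14 of those of cKO 5 to 8. Among the cells with Cd209a, 45 of 132 control cells also had Cd209d (34.1%, Wilson 26.6 to 42.5%) against 2 of 20 cKO cells (10.0%, 2.79 to 30.1%). Their median depths were 8137 and 7219 UMIs, and thinned to 1000 UMIs the shares were 10.5 and 1.01%. The Wilson intervals of the shares overlap, and 20 cKO cells limit what can be seen.

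Markers of other cells moved with these levels in part. In dendritic cell-like cells the 10 monocyte markers summed to 1031 to 1648 CPM in control and 1468 to 3202 in cKO mice. The 15 macrophage markers summed to 476.6 to 1350 against 468.8 to 689.4 CPM, and the 8 type 2 markers to 779.7 to 1491 against 644.6 to 1036 CPM. All of these ranges overlapped, and their part in the Cd209 levels was not tested. In the Xcr1 sub-cluster Cd209a varied widely between mice of both groups, from 10.9 to 180.1 CPM in control and from 0 to 160.4 CPM in cKO mice, and both of the highest values came from mice with under 20 such cells.

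In macrophage-like cells the members gave little to compare. Cd209a was at 8.45, 4.79 and 4.32 CPM in control 1, 2 and 4 and at 0 and 4.42 CPM in cKO 7 and 8. Cd209f was at 4.22, 32.4 and 0 CPM in these control mice and at 82.1 and 0 CPM in these cKO mice, where the 82.1 CPM came from 1 cell with 14 UMIs. A difference between the conditions was not detectable at this depth.

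Other genes related to these lectins were taken from 4 lists of 73 genes, which were chosen with earlier results of these data known. In the sums over all cells 64 were tested with edgeR's quasi-likelihood test and 16 passed a Benjamini-Hochberg adjusted p of 0.05, 8 higher and 8 lower in cKO mice. Over all 11387 genes tested 4.48% passed. The median log2 fold change of the listed genes was 0.06 against -0.03 over all genes.

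Of 13 other glycan-binding lectins tested, 4 rose (Clec4d, Clec4e, Lgals3 and Lgals9) and 3 fell (Clec9a, Mgl2 and Clec10a). Clec4e (Mincle), a receptor for mycobacterial cord factor, was at 35.2 to 193.5 CPM in control and 287.4 to 740.1 in cKO mice (log2 fold change 2.23, SE 0.46, edgeR adjusted p = 0.0204). Its neighbour Clec4d rose by 1.79 on the log2 scale (SE 0.35, edgeR adjusted p = 0.0154), from 14.4 to 44.4 CPM in control to 56.3 to 133.1 CPM in cKO mice. Mgl2, the paralogue of Clec10a, was at 213.9 to 312.6 CPM in control and 32.2 to 82.2 CPM in cKO mice (log2 fold change -2.12, SE 0.25, edgeR adjusted p = 0.000979). In each of these 3 genes every cKO mouse lay on 1 side of every control mouse, a description only, since the share of all tested genes that did so was not counted.

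Clec10a fell by 1.65 on the log2 scale (SE 0.39, edgeR adjusted p = 0.0374), from 77.7 to 159.6 CPM in control to 10.9 to 59.5 CPM in cKO mice. Clec9a fell by 1.90 (SE 0.47, edgeR adjusted p = 0.0413), with 19.5 to 57.7 CPM in control and 4.42 to 20.1 CPM in cKO mice, ranges that overlapped. Both calls were lost without the doublet calls and rested on single mice: over the alternatives the adjusted p from edgeR or another tool ran from 0.00254 to 0.0931 for Clec10a and from 0.004 to 0.152 for Clec9a.

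Of 19 receptors and transcription factors of dendritic cell differentiation, 5 fell (Batf3, Flt3, Irf8, Bcl11a and Id2) and none rose. Flt3 was at 49.5 to 71.3 CPM in control and 8.85 to 22.1 CPM in cKO mice (log2 fold change -1.92, SE 0.25, edgeR adjusted p = 0.00217). Of 16 ligands and signalling partners of DC-SIGN, Fcer1g and Ceacam1 rose, and of 17 scavenger and resident macrophage genes, Mertk and Msr1 rose. Of the 16 calls, 4 (Mgl2, Flt3, Lgals9 and Batf3) held under every alternative run. These sums over all cells carry the smaller share of dendritic cell-like cells described above.

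Within cell types the same lists gave no calls by edgeR's test. None of the 64 listed genes passed in dendritic cell-like cells, where 0.229% of 11358 genes did, nor in macrophage-like cells (0.431%), monocyte-like cells (0.361%) or lymphoid-like cells (0.088%). At an unadjusted p under 0.05 there were 5, 10, 6 and 2. Fits on 4 control and 3 cKO mice (dendritic cell-like) or fewer had little reach in a simulation. Of 200 genes simulated with a 4-fold change, the test recovered 63 in dendritic cell-like cells and 44 in macrophage-like cells, against 163 over all cells. The simulation gave every gene the same fixed spread between mice, not the spread of these sums, so recovery in the real fits can differ.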

How the data were processed

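The authors deposited raw UMI counts per gene and cell, made from 10x 3′ libraries with Cell Ranger, STAR (2.5.3a) and mm10 per the submitters' processing notes. Cells were kept at a log10 of at least 2.8 UMIs and 2.6 genes, with up to 5% mitochondrial UMIs and no hemoglobin UMI. Of the 16889 rows, 88 have no symbol. Clustering (scran 1.30.0, Ward, 9 clusters) used 9 principal components of 11874 of 11947 genes, leaving out the Cd209 rows, the listed genes, Slc3a2 and EYFP. Cells called doublets (73, 15 of them control) were marked and left out as an alternative only.

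The members and lists were chosen with earlier results of these data known. Counts were summed per mouse, and per mouse and cell type with at least 20 cells, and fitted with edgeR 4.0.16 (quasi-likelihood, Benjamini-Hochberg over all genes). Genes entered a fit if above 1 CPM in at least 3 sums and with a UMI in at least 20 cells. Lymphoid-like sums were fitted as well. Alternatives were DESeq2 1.42.0, limma-voom 3.58.1, no filter, other clusterings and leaving out each mouse. Named genes were the members, up to 6 listed genes past the threshold per comparison by size of change, the 5 nearest patterns per member with at least 50 UMIs, markers used to name cells, Slc3a2 and EYFP. EYFP, the Cre allele's reporter, was at 35.0 to 86.1 CPM in control and 14.1 to 46.2 in cKO mice. Genes named for their share in cells with Cd209f were picked after their values were seen.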

Additional observations from a re-analysis of the deposited data

Results flagged for a closer look

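In the cKO mice 1 value stood apart from the other 3 for 3 members summed over all cells. Cd209b was at 0.875 CPM in cKO 8 and Cd209e likewise at 0.875 CPM in cKO 8, each from 2 UMIs, with the other cKO mice at 0. Cd209c was at 6.03 CPM in cKO 5, from 3 UMIs in 1 cell, against 0 to 0.875 CPM in the others. Of 21 groups of 4 mice tested, 3 stood out by Dixon's ratio, and chance gives about 1 in 20 for continuous, normally spread values. That rate does not hold for Cd209b and Cd209e, where 3 values of 0 fix the ratio at 1.

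Barcodes left out by the filters also held UMIs of these genes: 48 of Cd209a in 31 barcodes, 5 of Cd209d in 4, 28 of Cd209f in 18 and 8 of Cd209g in 5. For Cd209f this was 28 of 91 UMIs in all barcodes, and 25 of the 28 were in 16 barcodes with few UMIs or genes. Pf4 had a UMI in 11 of the 18 barcodes with Cd209f.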

How the results depend on the processing

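No paired analysis was possible because the mice of the 2 groups share no replicate number. Genes called over all cells numbered 510, against 787 with no filter, and 155 to 738 leaving out each mouse (155 without control 2, 169 without control 1, 187 without cKO 7, 270 without cKO 8). Calls in dendritic cell-like cells numbered 26, against 42 with DESeq2, 64 with no filter, 44 with limma-voom and 5 to 50 leaving out each mouse (5 without cKO 7, 10 without control 1, 11 without control 2, 12 without cKO 6, 14 without cKO 8, 50 without control 4). In macrophage-like cells they numbered 49, against 102 with no filter and 4 to 78 (4 without cKO 8, 31 without control 1, 78 without control 4). In monocyte-like cells they numbered 41, against 87 with no filter, 64 with limma-voom and 12 to 42 (12 without control 1, 21 without control 2, 25 without cKO 6). In lymphoid-like cells they numbered 10, against 16 with DESeq2, 74 with no filter and 3 to 16 (3 without cKO 7, 5 without control 1 or 2, 16 without control 3). Listed genes called over all cells were 6 to 22 leaving out each mouse. Of those described with values, Clec4e was lost without control 1 (edgeR adjusted p = 0.0695) or cKO 7, Clec4d without control 1 (0.0627), Clec9a without control 2 or 3 or cKO 6, 7 or 8 (highest 0.152, cKO 7), and Clec10a without control 1 or 3 or cKO 5 or 6 (highest 0.0931, control 1). The other 8 lost calls fell below the threshold without 1 or more mice; control 1, control 2 and cKO 7 did so most often. Listed genes called within types numbered 2 with no filter in dendritic cell-like, 1 in macrophage-like, 1 in monocyte-like (also 1 with limma-voom, and 0 to 2 leaving out each mouse) and 1 in lymphoid-like cells.

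Cd209a over all cells lay between -2.21 and -1.73 (log2) leaving out each mouse and Cd209d between -5.81 and -4.46. In dendritic cell-like cells Cd209a lay between -1.14 and -0.52 and Cd209d between -6.97 and -4.06, with -3.61 by limma-voom. By cell type Cd209a lay between 6.19 and 6.84, with 4.92 at a pseudocount of 10 CPM, Cd209d between 3.19 and 4.71 and Cd209f between -3.46 and -1.86. Cd209e turned to -0.21 with graph clustering and ranged from -0.15 to 0.65 leaving out each mouse. The dendritic cell-like share differed by -17.35 to -14.91 points leaving out each mouse and by -16.2 without control 3 and cKO 5, where 3 against 3 allow no p below 0.1 (exact permutation test, p = 0.1). Thinned to 2000 UMIs, Cd209a was in 28.6% of dendritic cell-like cells. The cause of these moves was not tested. The depth of 11 cells with Cd209f limits any statement on that gene.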
